A study of Mus musculus with 6 samples.

Results

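The module described here is the set of genes for lipid storage, lipolysis and fatty acid oxidation, followed in the uterus of mice that lack *Foxo1* in cells that express the progesterone receptor. Its 36 members were taken by symbol from a named list out of the 23420 genes of the deposited table. RNA was sequenced from uteri of *Foxo1f/f* mice, which carry floxed *Foxo1* alleles and no Cre, and of *PgrCre/+ Foxo1f/f* mice, called *Foxo1d/d*, in which Cre recombinase from the *Pgr* locus removes the floxed second major coding exon. All females were C57BL/6J mice of 8 weeks, fed standard chow per the labels (a diet free of soy protein per the study's methods), and were taken on pseudopregnancy day (PPD) 4.5 after mating with vasectomized males. Each library held the pooled RNA of 2 females, and there were 3 libraries per genotype, 6 in all. Cre at *Pgr* acts wherever the receptor is made, which includes the pituitary, ovarian granulosa cells and the mammary gland besides several uterine compartments, so a difference between the genotypes is not tied to one cell type. The values are the authors' mean raw counts per gene over the 3 libraries of a genotype, and they sum to 26125014 in *Foxo1f/f* and 27257963 in *Foxo1d/d*. Values of single pools were not analysed here, so no SD between pools stands beside any value. Each fold carries a 95% exact interval from the summed counts, 78375043 and 81773890 in all, which covers counting error only. Where a pair of mean counts or levels is given for a gene, the first belongs to *Foxo1f/f* and the second to *Foxo1d/d*.

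Fat cells store fatty acids as triacylglycerol in a lipid droplet, coat the droplet with perilipins and CIDE proteins, and release the fatty acids through a chain of lipases when adrenergic signals arrive. Most other cells keep small droplets with other coat proteins and burn fatty acids in mitochondria, where carnitine palmitoyltransferases carry the acyl groups across the membranes and acyl-CoA dehydrogenases and the trifunctional protein shorten them. In the uterus the stroma takes up and oxidizes fatty acids as it decidualizes, and fat also lies around the horns in the parametrial and mesometrial tissue.

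*Foxo1* itself, on chromosome 3 from 52268336 to 52353221 of GRCm38, had mean counts of 3941 and 1456. In CPM, the count scaled to a column total of 1000000, this is 151 and 53.4, a level 2.82-fold lower (2.73 to 2.93) in the libraries labelled *Foxo1d/d*. The label and the targeted gene therefore go the same way, although counts over the whole gene do not show how many transcripts lack the floxed exon, and *Foxo1* shares 674 exon bases with a gene on the opposite strand. The tissue label was checked against uterine genes: *Hoxa10*, a homeobox gene of the uterine stroma, stood at 546 and 506 CPM.

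A gene is called higher or lower below where the ratio of its scaled mean counts, with a pseudocount of 1, was at least 1.5-fold (0.58 on the log2 scale), among genes whose counts averaged at least 10 over the genotypes. Of the 36 members, 35 passed that count minimum, and *Cidea* did not. *Lep* passed only through its count in *Foxo1d/d* and *Cpt1b* only through its count in *Foxo1f/f*. Among the 35, 11 were higher in *Foxo1d/d*, or 31.4%, beside 5.43% of all 15696 genes tested, and 1 was lower, or 2.86%, beside 3.51%. The 11 came from 5 of the 8 roles. They were the adipokines and *Adrb3*, droplet proteins of fat cells, fatty acid binding proteins, the lipase relative *Pnpla3* and enzymes of triacylglycerol synthesis, while no gene of mitochondrial oxidation was among them. The median log2 ratio was 0.10 over the tested members and 0.02 over all genes tested.

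**Figure D1:**
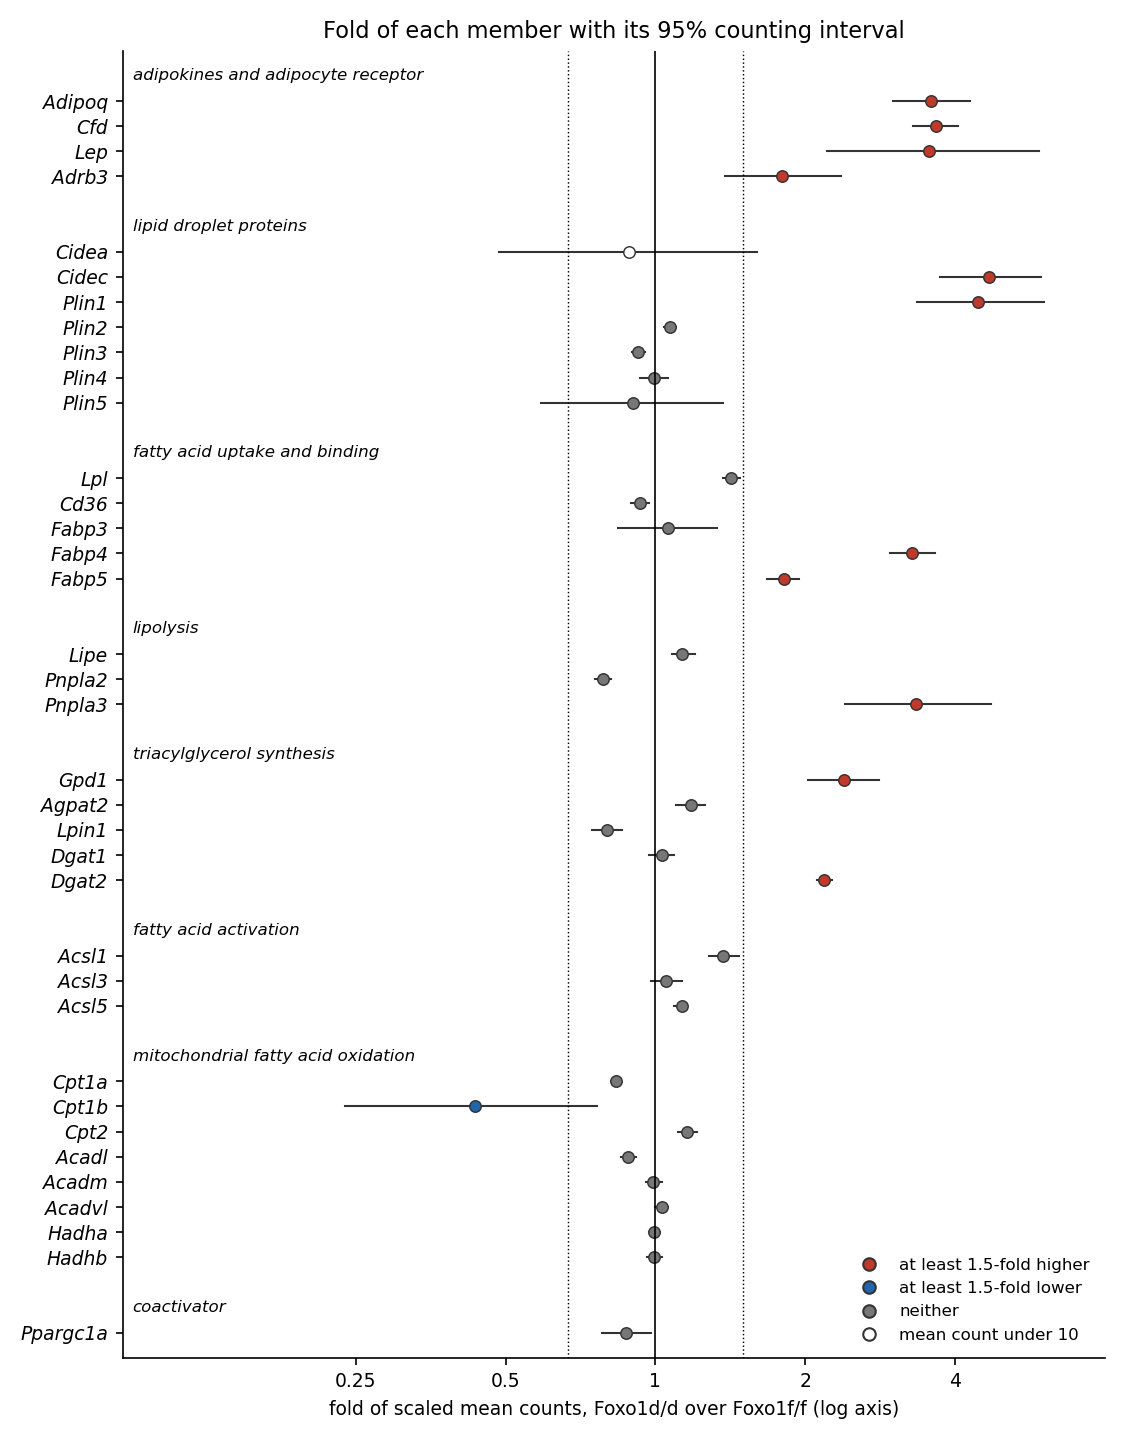
Fold of each of the 36 members, *Foxo1d/d* over *Foxo1f/f*, on a log axis, grouped by role, with bars for the 95% exact counting interval and dotted lines at 1.5-fold in either direction. The 11 members called higher run from 1.80-fold for *Adrb3* to 4.69-fold for *Cidec*, and the 1 called lower is *Cpt1b*.

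Of the adipokines and the adipocyte receptor, all 4 members were higher, beside 5.43% of all genes. *Adipoq*, which encodes adiponectin, had mean counts of 53.67 and 200.7, a 3.58-fold higher level (3.01 to 4.29). *Cfd*, which encodes complement factor D, or adipsin, went from 155.7 to 594.0, 3.66-fold higher (3.30 to 4.06). *Lep*, the gene of the satiety hormone leptin, had 7.667 and 28.33, 3.54-fold higher with a wide interval of 2.21 to 5.89 because its counts are few. These 3 encode secreted products of fat cells, and their counting intervals overlap. *Adrb3*, the adrenergic receptor through which catecholamines start lipolysis in rodent fat, had a smaller difference, from 29.00 to 54.33 or 1.80-fold (1.38 to 2.36), and the lower end of its interval is under the 1.5-fold threshold. *Adrb3* also shares 839 exon bases with a gene on the opposite strand, and the strand setting of the authors' counting is not given in the sources used here, so reads of the pair cannot be told apart. In bulk tissue, more or fewer cells of a type and more or less RNA per cell cannot be told apart, which holds for every gene below.

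Among the lipid droplet proteins, 2 of the 6 tested members were higher, beside 5.43% of all genes, and both belong to the fat cell droplet, while *Plin4*, which is also made in fat, was not called. *Cidec*, whose product fuses droplets into the single large one of white fat, had mean counts of 30.00 and 146.7, 4.69-fold higher (3.73 to 5.95). *Plin1*, the perilipin that shields the adipocyte droplet from lipases, went from 19.33 to 90.00, 4.46-fold higher (3.35 to 6.03). These were the largest folds in the module. *Plin2*, the droplet coat of most cells, had 2666 and 2977, a ratio of 1.07, and *Plin3*, which moves from the cytosol to new droplets, had 2760 and 2660, a ratio of 0.924. *Plin4*, a perilipin abundant in white fat, was level at 650.7 and 674.0, a ratio of 0.993 (0.932 to 1.06). *Plin5*, the perilipin of oxidative tissue, had only 16.33 and 15.33, and *Cidea*, a droplet protein of brown fat, 8.667 and 8.000. At such counts the intervals of 0.588 to 1.37 for *Plin5* and 0.486 to 1.60 for *Cidea* include 1, so no difference was detectable at this depth.

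Uptake and binding of fatty acids gave a mixed picture. *Fabp4*, the fatty acid binding protein of adipocytes that capillary endothelium and macrophages also make, had 156.0 and 534.0, 3.28-fold higher (2.96 to 3.64). *Fabp5*, a close relative found in skin, macrophages and fat, went from 378.3 to 713.7, 1.81-fold higher (1.68 to 1.94). Both genes lie on chromosome 3, from 10204088 to 10208576 and from 10012548 to 10016607. Whether their folds differ from each other was not tested. *Lpl*, the lipase on capillary walls that frees fatty acids from circulating triacylglycerol, had 1502 and 2233, a ratio of 1.42 (1.37 to 1.48) just under the threshold. *Cd36*, which carries fatty acids through the plasma membrane, was at 1570 and 1527, and *Fabp3*, the form of heart and muscle, at 48.67 and 53.67. Their ratios of 0.932 and 1.06 leave neither called.

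The lipases differed from one another. *Pnpla2*, the adipose triglyceride lipase that takes the first step of lipolysis in nearly all cells, had mean counts of 1923 and 1576, 1.27-fold lower (1.23 to 1.32) and not called. *Lipe*, the hormone-sensitive lipase of the next step, had 859.7 and 1018, a ratio of 1.13 (1.08 to 1.20). *Pnpla3*, a droplet protein related to *Pnpla2* and highest in fat and liver, went from 15.67 to 54.67, 3.34-fold higher (2.40 to 4.73). The lipases of the main lipolytic chain thus differed by less than 1.5-fold, and the called one had the fewest counts. *Lipe* shares 918 exon bases with a gene on the opposite strand, and *Pnpla3* shares 105 with a gene on its own strand, so their counts are less certain. The same holds for *Gpd1*, *Acsl1*, *Acsl5* and *Acadvl*, which share 384, 1039, 404 and 1151 exon bases with genes on the opposite strand, and for *Acsl3*, which shares 244 with a gene on its own strand. *Fabp3*, *Agpat2*, *Hadha* and *Plin4* share at most 81 with any 1 gene.

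Of the 5 enzymes of triacylglycerol synthesis, 2 were higher, beside 5.43% of all genes. *Gpd1*, which makes glycerol 3-phosphate, the backbone of the molecule, had 72.33 and 180.0, 2.39-fold higher (2.03 to 2.81). *Dgat2*, which adds the last acyl chain, went from 1496 to 3409, 2.18-fold higher (2.11 to 2.26). Its level was 57.3 and 125 CPM. *Dgat1*, an unrelated enzyme for the same last step, was level at 774.0 and 829.7, with a ratio of 1.03 (0.970 to 1.09). *Agpat2*, which adds the middle acyl chain and is needed for fat to form, had 546.0 and 670.0, and *Lpin1*, the phosphatase before the last step, 605.3 and 505.7. Their ratios were 1.18 and 0.801. *Dgat1*, *Agpat2* and *Lpin1* were therefore not called in either direction.

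Of the acyl-CoA synthetases, which activate fatty acids, all 3 had ratios over 1, as 55.1% of all genes tested had, and 0 were called, beside 5.43% higher and 3.51% lower of all genes. *Acsl1*, the main form of fat and muscle, had 450.3 and 645.3, a ratio of 1.37 (1.28 to 1.47). *Acsl3*, a form bound to nascent droplets, had 496.3 and 545.0, and *Acsl5*, a form of mitochondria and the endoplasmic reticulum, 2507 and 2943. The ratios of these were 1.05 (0.980 to 1.13) and 1.13 (1.09 to 1.16).

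In mitochondrial oxidation 0 of the 8 members were higher, beside 5.43% of all genes, and 1, *Cpt1b*, was lower, beside 3.51%, so the counts of so few genes say little about the role. The median log2 ratio of the role was -0.01, in a range of -1.09 to 0.21. *Cpt1a*, which forms acylcarnitines at the outer membrane and sets the rate of entry, had mean counts of 5267 and 4587, a ratio of 0.835 (0.816 to 0.854). *Cpt2*, which returns the acyl group to coenzyme A inside, had 1209 and 1459, a ratio of 1.16. The dehydrogenases for long, medium and very long chains, *Acadl*, *Acadm* and *Acadvl*, had ratios of 0.883, 0.991 and 1.03. Both subunits of the trifunctional protein were level: *Hadha* had 5066 and 5253 and *Hadhb* 2327 and 2418, for ratios of 0.994 and 0.996. These last genes lie side by side on chromosome 5, from 30118304 to 30155162 and from 30155248 to 30184593. *Cpt1b*, the carnitine palmitoyltransferase of muscle, had 14.00 and 6.333, or 2.31-fold lower (1.31 to 4.20). Its count is small, and it shares 2744 exon bases with a readthrough gene on the same strand, so the value is uncertain. *Ppargc1a*, a coactivator that turns on mitochondrial genes, had 219.3 and 200.0, a ratio of 0.874 (0.781 to 0.978).

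The order of the members' levels was read in CPM per kb of exon, since CPM alone, in which the sums of lists are given, is not corrected for length. The highest members in *Foxo1f/f* were *Acadvl* at 58.3, *Plin2* at 54.1, *Hadha* at 48.3 and *Cpt1a* at 46.7 CPM per kb, and the lowest was *Lep* at 0.0900. The genes of oxidation and of the droplet coat of most cells thus filled the top of the order, and the called members lay mostly in its lower part. *Dgat2* was the clearest exception, at 25.3 CPM per kb in *Foxo1f/f*, the tenth place of the order, and 55.3 in *Foxo1d/d*, close to *Plin2* at 57.8. *Fabp4* went from 6.66 to 21.9 and *Cfd* from 6.46 to 23.6 CPM per kb. In *Foxo1d/d* both were above *Agpat2* at 16.5 and *Lpl* at 19.9, which they were under in *Foxo1f/f*. Without values of single pools, neighbours in this order cannot be separated by their spread.

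**Figure D2:**
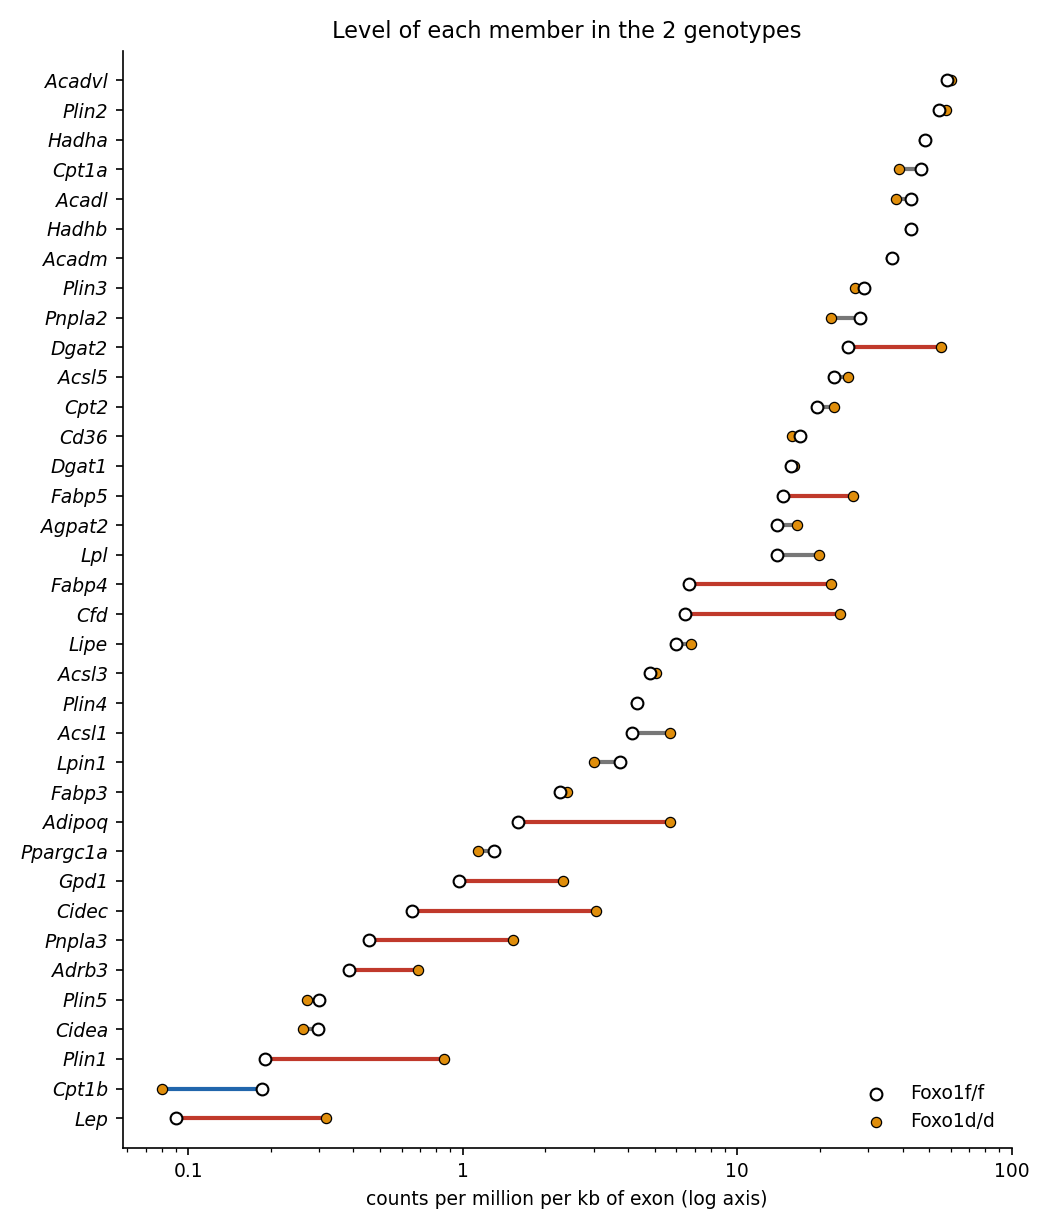
Level of each member, in counts scaled to a total of 1000000 and per kb of exon, on a log axis, with open circles for *Foxo1f/f* and filled circles for *Foxo1d/d*, ordered by the level in *Foxo1f/f*; red lines join members called higher and the blue line the 1 called lower. Most long red lines sit in the lower part of the order, and *Dgat2* is the 1 called member that began among the 10 highest.

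Low counts give large ratios more often, so the members were also read by range of mean count. With 10 to 100 counts there were 8 members, of which 5 were higher and 1 lower, beside 16.1% and 9.98% of all genes in that range. Between 100 and 1000 counts there were 13, of which 5 were higher and 0 lower, beside 4.89% and 3.01%. At 1000 counts or more there were 14, of which 1, *Dgat2*, was higher and 0 lower, beside 1.75% and 1.42%. In the middle range the called members were *Adipoq*, *Cfd*, *Fabp4*, *Fabp5* and *Gpd1*. The median absolute log2 ratio of the members was 1.39, 0.32 and 0.14 in the 3 ranges, beside 0.32, 0.15 and 0.11 over all genes. The abundant members thus had ratios near those of other abundant genes.

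**Figure D3:**
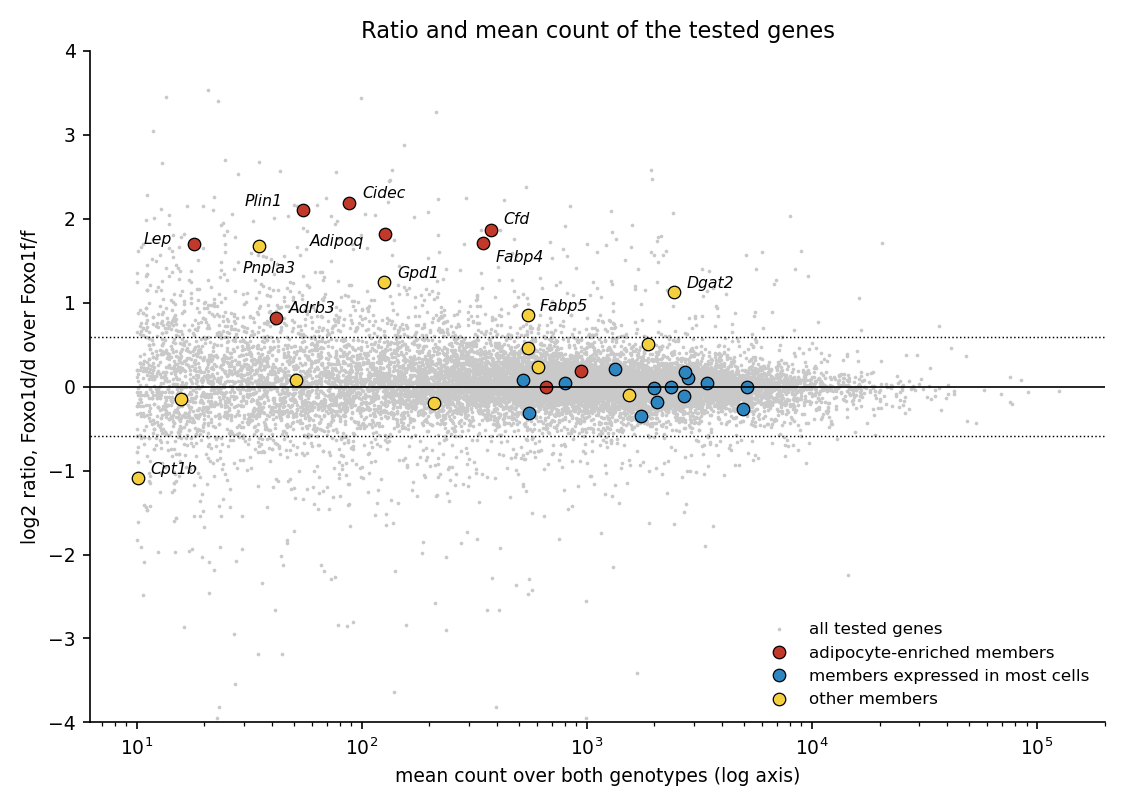
Log2 ratio (*Foxo1d/d* to *Foxo1f/f*) against the mean count over both genotypes for the 15696 tested genes (grey) and the 35 tested members (colored), with dotted lines at 1.5-fold; 13 genes with an absolute log2 ratio over 4 lie outside the plot. The adipocyte-enriched members have a median of 1.71 and the members expressed in most cells one of -0.01. Both subsets were chosen with earlier results of these data known.

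Most of the members fall into subsets by where they are made. These subsets were chosen with earlier results of these data known, so their shares and medians are descriptions only. Of the 10 members enriched in adipocytes, 9 were tested, 7 were higher (77.8%, beside 5.43% of all genes) and 0 lower (beside 3.51%), and their median log2 ratio was 1.71; *Lep*, 1 of the 7, passed the count minimum only through *Foxo1d/d*. Of the 14 members expressed in most cells, 0 were called, and their log2 ratios ran from -0.35 to 0.21 with a median of -0.01. Their summed level was 1263 and 1221 CPM, while that of the adipocyte-enriched members was 75.4 and 123 CPM. The 12 members in neither subset hold 4 of the 11 called higher, *Fabp5*, *Pnpla3*, *Gpd1* and *Dgat2*, and *Cpt1b*, the 1 called lower. The rest of the 12 were not called, among them *Lpl*, *Cd36*, *Agpat2* and *Acsl1*, with ratios of 1.42, 0.932, 1.18 and 1.37. The adipocyte-enriched subset was itself not uniform. *Adipoq*, *Cfd*, *Lep*, *Cidec*, *Plin1* and *Fabp4* had folds of 3.28 to 4.69 and together 16.2 and 58.5 CPM. The other 4, *Adrb3*, *Cidea*, *Plin4* and *Lipe*, summed to 59.3 and 64.3 CPM, in which *Lipe* had 32.9 and 37.3 CPM and *Plin4* 24.9 and 24.7 CPM. This division into 6 and 4 was drawn after the values were seen and is a description only. Membership in the subset therefore did not go with a called difference in every gene.

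Since those 6 genes stood together, the bases before their start sites are shown, from RefSeq promoters on GRCm38.p6. Of the 36 members, 27 were matched by symbol to 31 promoters of 300 bases, from 250 before to 50 after the start. The unmatched members were *Adrb3*, *Cidea*, *Cpt1b*, *Dgat1*, *Dgat2*, *Fabp4*, *Fabp5*, *Gpd1* and *Lpl*. Shown are the 120 bases before the start of *Adipoq* (chr16:23146416-23146535, plus strand), *Cfd* (chr10:79890733-79890852, plus strand), *Lep* (chr6:29060101-29060220, plus strand) and *Cidec* at the outer of its start sites (chr6:113435761-113435880, minus strand). The window of *Plin1* lies in an annotated exon and is left out. Capitals mark TATAAA and CCAAT on either strand, core promoter motifs that were added to the search after the values were seen.
Adipoq: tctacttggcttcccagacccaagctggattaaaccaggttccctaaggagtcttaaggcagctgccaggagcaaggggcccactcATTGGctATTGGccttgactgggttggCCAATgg
Cfd: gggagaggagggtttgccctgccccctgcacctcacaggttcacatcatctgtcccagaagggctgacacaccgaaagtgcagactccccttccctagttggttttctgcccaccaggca
Lep: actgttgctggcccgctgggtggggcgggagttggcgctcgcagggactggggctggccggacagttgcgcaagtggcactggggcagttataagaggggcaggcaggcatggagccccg
Cidec: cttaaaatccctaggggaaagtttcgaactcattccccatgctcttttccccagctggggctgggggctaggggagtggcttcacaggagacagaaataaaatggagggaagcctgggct

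Of these 4 windows, that of *Adipoq* alone holds capitals, at 3 places. Among the 32851 promoters of the table, 37.4% hold the CCAAT motif on either strand and 13.6% the TATA motif spelled above. The former was found in promoters of 11 of the 27 matched members, of which *Adipoq* and *Pnpla3* were called higher, and the latter in 0 of them.

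Further motifs were searched on both strands in the whole 300 bases: GTAAACA, the core that FOXO proteins bind, AGGTCA, the half-site of nuclear receptors, and a direct repeat of AGGTCA with 1 base between the copies, the form that PPAR and RXR bind as a pair. GTAAACA is in 3.65% of all promoters and in that of 1 matched member, *Lipe*, which was not called. AGGTCA is in 16.3% of all promoters and in those of 7 matched members, *Acadm*, *Acadvl*, *Cd36*, *Cpt1a*, *Lpin1*, *Plin2* and *Plin5*, none of them called. The direct repeat is in 0.0396% of all promoters and in 0 of the matched members. None of the 6 called members with a promoter in the table, *Adipoq*, *Cfd*, *Lep*, *Cidec*, *Plin1* and *Pnpla3*, holds GTAAACA or AGGTCA in these 300 bases. A match is a description of letters and not a bound site, and a window without one says nothing about the factor. The match of *Lipe* (chr7:25390210-25390246, minus strand) and, as examples of the half-site in oxidation genes, those of *Acadvl* (chr11:70015495-70015530, minus strand) and *Cpt1a* (chr19:3323192-3323227, plus strand) follow with 15 bases on either side, with the motif or its reverse complement in capitals.
Lipe: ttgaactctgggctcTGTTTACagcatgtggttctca
Acadvl: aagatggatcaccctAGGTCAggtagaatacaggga
Cpt1a: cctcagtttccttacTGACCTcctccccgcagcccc

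Other genes of the same pathways were read from lists beside the members. Of 25 other genes of triacylglycerol storage and lipolysis, 23 were tested, with a median log2 ratio of 0.03. Of these, 2 were higher (8.70%, beside 5.43% of all genes) and 0 lower (beside 3.51%). *Mogat1*, a monoacylglycerol acyltransferase that feeds *Dgat2* its substrate, had 7.333 and 49.33, 6.45-fold higher (4.10 to 10.6), and passed the count minimum only through *Foxo1d/d*. *Lipg*, which encodes endothelial lipase, had 603.7 and 1253, 1.99-fold higher (1.88 to 2.11). The other 21 tested genes of the list were not called.

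Of 30 other genes of fatty acid oxidation and its control, 29 were tested, with a median log2 ratio of 0.06. Of these, 0 were higher (beside 5.43% of all genes) and 3 lower (10.3%, beside 3.51%). *Pdk4*, a kinase that holds back glucose oxidation when fatty acids are burned and a known FOXO1 target in other tissues, had 951.3 and 339.3, 2.93-fold lower (2.72 to 3.15). *Acsl4*, a synthetase that prefers arachidonic acid, had 4498 and 2443, 1.92-fold lower (1.87 to 1.98). Neither is a step of the oxidation spiral itself, and, as among the members, the enzymes of that spiral were not called.

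Of 20 regulators and receptors, all tested, 1 was higher and 2 were lower, beside 5.43% and 3.51% of all genes, with a median log2 ratio of -0.04. *Adrb1*, another adrenergic receptor, had 36.33 and 62.33, 1.64-fold higher (1.29 to 2.10). *Mlxipl*, the glucose-sensing factor ChREBP, had 153.0 and 105.3, 1.52-fold lower (1.31 to 1.75). *Pparg* and *Cebpa*, the main transcription factors of fat cell formation, are outside the rule for naming genes and are added with their values known. *Pparg* had 60.67 and 82.33, a ratio of 1.30 (1.07 to 1.58), and *Cebpa* 1349 and 976.0, 1.44-fold lower (1.37 to 1.51). Neither was called.

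Several adipocyte markers outside the members were higher as well, in a list that was also chosen with earlier results of these data known. Of 11 such markers, 8 were tested, 5 were higher and 1 lower (62.5% and 12.5%, beside 5.43% and 3.51% of all genes), with a median log2 ratio of 0.62 and a summed level of 51.6 and 100 CPM. With a count minimum of 50 in place of 10 the median was 1.87. *Retn* passes that minimum only through *Foxo1d/d*, and the median without it was not computed. The value of 1.87 is therefore not read as a larger difference. *Retn*, which encodes the adipokine resistin, had 21.67 and 105.0, 4.64-fold higher (3.55 to 6.16). *Car3*, a carbonic anhydrase abundant in fat and muscle, had 296.3 and 1381, 4.47-fold higher (4.15 to 4.81), and *Thrsp*, a lipogenic nuclear protein, 140.3 and 538.0, 3.67-fold higher (3.30 to 4.10). The marker of the list with the most counts in *Foxo1f/f* went the other way: *Pck1*, which makes glycerol backbones in fat and glucose in liver, had 623.0 and 394.3, 1.65-fold lower (1.53 to 1.77). *Retn* and the markers called higher that are not named here averaged 10 to 100 counts, a range in which 16.1% of all genes were higher. None of the 11 was at 0 in either genotype. Of 5 brown adipocyte markers, 1 was tested and 0 were called, at a summed 0.970 and 1.10 CPM. *Cox8b* had the most counts in *Foxo1f/f*, at 18.00 and 23.67, *Zic1* was at 0 in both genotypes and *Otop1* at 0 in *Foxo1d/d*, where a count of 0 allows up to 0.0367 CPM. How much adipose tissue each pool held, and its part in the result, was not tested.

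**Figure D4:**
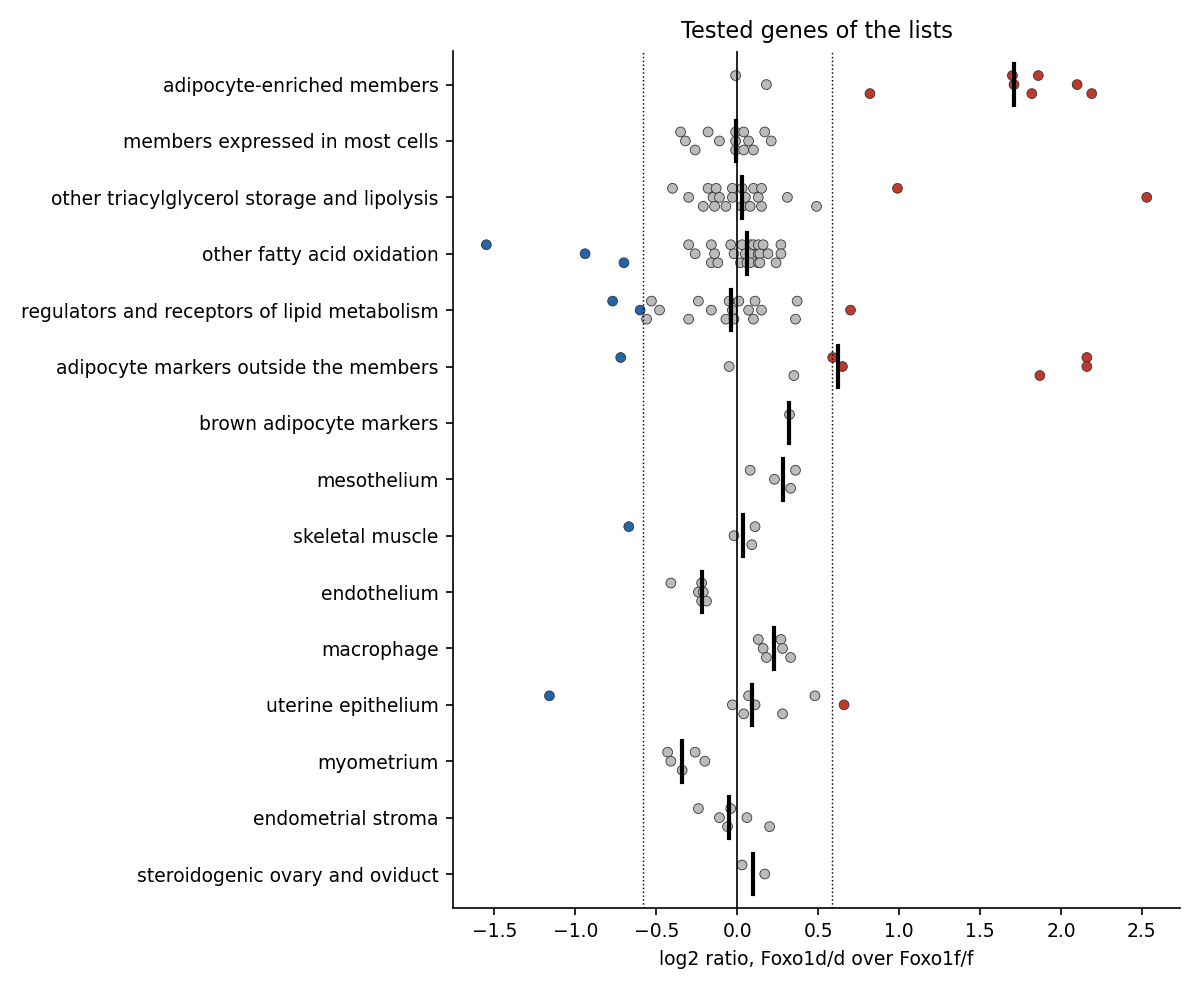
Log2 ratio (*Foxo1d/d* to *Foxo1f/f*) for the tested genes of the member subsets, the pathway lists and the cell type lists, with a black bar at each list's median and dotted lines at 1.5-fold; red points are higher and blue points lower. The adipocyte-enriched members (median 1.71) and the adipocyte markers outside the members (0.62) have the highest medians, and the myometrium (-0.34) the lowest. The lists were chosen with earlier results of these data known.

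Markers of the other cell types in and around the uterus are given beside the adipocyte genes. Of all genes tested, 5.43% were higher and 3.51% lower, and 55.1% had a ratio over 1. These shares stand beside the counts of each list in this paragraph. The 5 markers of myometrium, the smooth muscle of the wall, all had ratios under 1, with 0 called, a median log2 ratio of -0.34 and a summed 4637 and 3595 CPM; the most in *Foxo1f/f* came from *Myh11*, at 2323 and 1724 CPM. All 6 endothelial markers were also under 1, with 0 called, a median of -0.22 and a summed 1418 and 1187 CPM, the most in *Foxo1f/f* from *Pecam1* at 373 and 319 CPM. The 6 macrophage markers all had ratios over 1, with 0 called, a median of 0.23 and a summed 428 and 504 CPM, the most in *Foxo1f/f* from *Csf1r* at 95.2 and 106 CPM. The 4 mesothelial markers had ratios over 1, with 0 called, a median of 0.28 and a summed 51.2 and 59.4 CPM, the most in *Foxo1f/f* from *Upk3b* at 24.2 and 25.6 CPM.

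The tissues closer to the lumen and the neighbouring organs showed smaller medians. Of 8 epithelial markers, 1 was higher (12.5%, beside 5.43% of all genes) and 1 lower (12.5%, beside 3.51%). The shares of 5.43% and 3.51% also stand beside the other lists of this paragraph. The epithelial markers had a median of 0.09 and a summed 607 and 665 CPM, the most in *Foxo1f/f* from *Cdh1* at 170 and 183 CPM. *Wnt7a*, a signal of the luminal epithelium, had 522.3 and 859.0, 1.58-fold higher (1.48 to 1.68). The 6 stromal markers had 0 called, a median of -0.05 and a summed 2368 and 2203 CPM, the most in *Foxo1f/f* from *Vim* at 990 and 838 CPM. Of 7 skeletal muscle markers 4 were tested, with 0 higher and 1 lower (25.0%, beside 3.51% of all genes). Their median was 0.04 and their summed level 110 and 108 CPM, the most in *Foxo1f/f* from *Acta1* at 92.9 and 91.9 CPM. The lower one, *Ckm*, had 67.33 and 43.67, 1.61-fold lower (1.28 to 2.02). In its range of 10 to 100 counts, 9.98% of all genes were lower. *Myh4* was at 0 in both genotypes and *Pvalb* at 0 in *Foxo1d/d*. Of 5 markers of steroidogenic ovary and oviduct 2 were tested and 0 called, with a median of 0.10 and a summed 128 and 143 CPM, the most in *Foxo1f/f* from *Ovgp1* at 112 and 126 CPM, and *Hsd3b1* was at 0 in *Foxo1d/d*. In all the lists of this and the preceding paragraph no marker other than *Myh4* was at 0 in both genotypes, and their part in the differences of the module was not tested.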

How the data were processed

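Uterine RNA was sequenced by the authors as 100-base paired-end reads. Per the study's methods, 11 bases were trimmed from the 5′ ends, reads were mapped to mm10 with STAR (the submitters' processing notes name mm9), duplicates were removed with Picard and reads per RefSeq gene were counted with HTSeq; versions and the strand setting are not given in the sources used here. The authors deposited raw counts averaged per genotype, which are the only values used. All means are whole numbers after multiplication by 3, to within 0.001. The authors' edgeR fold change, average log2 CPM, p-value and FDR stand beside them and were not used.

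The members and lists were chosen with earlier results of these data known. The log2 ratio compares mean counts plus 1, each divided by its genotype's total. Folds of single genes have no pseudocount, and their 95% Clopper-Pearson intervals come from summed counts. With genotype means only, no p-value was computed. Lists were described by counts and medians. Named are *Foxo1*, all members, at most 4 called genes of each list with the largest absolute log2 ratios, and the most abundant gene of each cell type list; *Hoxa10*, *Pparg*, *Cebpa* and markers at 0 were added after their values were seen. The values of 3 genes that the rule names are not reported here. The pathway and cell type lists share no gene with each other or with the members. *Trarg1* and *Adgre1* were matched by synonym.

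Positions, exon lengths for CPM per kb and overlaps come from GENCODE M21 on GRCm38, and promoters from RefSeq on GRCm38.p6. Alternatives were pseudocounts of 0.1 and 5, ratios centred on the median gene, totals without the 100 most abundant genes, count minimums of 1 and 50, thresholds of 1.25-fold and 2-fold, and a call that also needs the interval to exclude 1. Python 3.11.15 with numpy 2.4.6, pandas 2.3.3, scipy 1.17.1 and matplotlib 3.10.9 was used, and the ratios and intervals were tested on simulated data. The simulated counts held counting error only and no variation between pools, so they cannot show how the intervals behave with such variation.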

Additional observations from a re-analysis of the deposited data

How the results depend on the processing

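The 11 members called higher were the same 11 with either other pseudocount, either other scaling, a count minimum of 1 and the added demand on the interval. A 2-fold threshold left 9 of them, without *Adrb3* and *Fabp5*, a count minimum of 50 left 8, without *Adrb3*, *Lep* and *Pnpla3* (*Cidec* and *Plin1* pass it only through *Foxo1d/d*), and the lower threshold gave 13, with *Acsl1* and *Lpl* added. Members called lower were 2 at the lower threshold, where *Pnpla2* joined *Cpt1b*, and 0 with a count minimum of 50, which removes *Cpt1b*. All genes called higher numbered 1968 at the lower threshold, 313 at 2-fold, 1346 with a minimum of 1 and 528 with a minimum of 50; those called lower numbered 1412, 220, 919 and 357. The members' log2 ratios stayed inside their counting intervals in 144 of 144 comparisons. Of 143 list medians under an alternative, 140 lay between the medians of their genes' lower and upper counting bounds, which are far apart for lists with few counts; with a minimum of 50 the adipocyte markers outside the members had 1.87, with *Retn* passing only through *Foxo1d/d*, and the lipolysis role, then without *Pnpla3*, -0.08, and centring gave -0.36 for the myometrium. No called value changed sign.

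The intervals cover counting error only. The number of pools that share a difference was not analysed here, and leaving out a library was not possible for the same reason. No paired analysis was possible because the analysed columns hold only genotype means. Depth limits *Cidea*, *Plin5*, *Cpt1b* and *Lep*, which rest on the fewest counts.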
